A study of Mus musculus with 6 samples.

Results

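The 4 mouse genes of the early B cell factor family, Ebf1, Ebf2, Ebf3 and Ebf4, were examined in embryonic sensory neurons for open chromatin and for H3K27ac, the acetylated form of histone H3 found at promoters and enhancers in use. They were taken by symbol from the 21887 protein-coding genes that RefSeq places on GRCm38, to which mm10 coordinates refer. For each gene, the peaks in its span, within 1 kb of its ends and in the flanks up to the neighbouring protein-coding genes, at most 300 kb away, were collected. This gave 59 of 43652 peaks of ATAC-seq, which maps chromatin open to a transposase, and 60 of 19924 peaks of H3K27ac ChIP-seq.

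Cells came from dorsal root ganglia of E11.5 embryos of Runx3-BAC-GFP-CB6 transgenic mice, in which a Runx3 bacterial artificial chromosome drives GFP. They were dissociated, fixed with paraformaldehyde and sorted for GFP, and are labelled TrkC proprioceptive neurons, the lineage that senses muscle stretch. All 6 samples share this genotype, stage and tissue and fall into groups of 2 for each of ATAC, H3K27ac and input, 3 groups in all, with 50000 cells per preparation. There is no second genotype, treatment or time, and how many embryos were pooled is not given in the sources used here. The sort rests on Runx3 reporter activity, so other GFP-positive cells of the ganglion would be included.

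The values are 1 consensus list of peak positions per assay, without signal, so the depth is unknown and no spread between replicates can be given. Of 9 markers of sensory neurons of the TrkC lineage, 7 were open (an ATAC peak no more than 1 kb from an annotated end) and 6 acetylated (the same for H3K27ac), and all 9 had both marks somewhere in the span or within 1 kb of it, as 70.1% of all genes had for ATAC and 55.5% for H3K27ac. Ntrk3 and Prrxl1 had no ATAC peak at an end, and Runx3, Ntrk3 and Prrxl1 had no H3K27ac peak there. Runx3, among the 7 open markers, is also the gene whose reporter was used for the sort, so its peaks are no separate sign of identity. At an end, 60.4% of all genes were open, 49.3% acetylated and 47.8% both. Of markers of other cells, glia and neural crest had 4 open and 5 acetylated of 6, and their factors Sox10 and Foxd3 were acetylated without an ATAC peak. Mesenchyme had 5 open and 2 acetylated of 7, motor neurons 3 and 2 of 5, and olfactory neurons 2 and 2 of 4. Dorsal spinal interneurons had 3 and 0 of 5, endothelium 2 and 0 of 5, and B cells 0 and 1 (Cd79a) of 5. The part of such cells in the peaks below was not tested.

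EBF proteins are helix-loop-helix transcription factors with a DNA-binding domain of their own kind, and they bind a palindromic site as dimers. Ebf1 is needed to make B cells, Ebf2 acts in brown fat, and several members are expressed in new neurons as these leave the cell cycle, sensory ganglia included. Proneural bHLH factors can switch on Ebf genes, and the zinc finger proteins Zfp423 and Zfp521 bind EBF proteins and can block them.

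RefSeq promoter windows, from 250 bases before a start to 50 after it on GRCm38.p6, matched Ebf1 (2 starts), Ebf3 and Ebf4. The 250 bases before the start are shown for 1 start of each gene because these windows were covered differently by the peaks. They are written 5′ to 3′ in the direction of the transcript, with each CpG in capitals: Ebf1 at chr11:44617850-44618099 (plus strand), Ebf3 at chr7:137314446-137314695 (minus strand) and Ebf4 at chr2:130295689-130295938 (plus strand).
Ebf1: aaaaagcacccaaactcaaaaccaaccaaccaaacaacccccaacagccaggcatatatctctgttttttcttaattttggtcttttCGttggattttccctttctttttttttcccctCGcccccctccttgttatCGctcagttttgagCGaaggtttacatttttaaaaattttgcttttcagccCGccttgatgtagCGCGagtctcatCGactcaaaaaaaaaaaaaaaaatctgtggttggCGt
Ebf3: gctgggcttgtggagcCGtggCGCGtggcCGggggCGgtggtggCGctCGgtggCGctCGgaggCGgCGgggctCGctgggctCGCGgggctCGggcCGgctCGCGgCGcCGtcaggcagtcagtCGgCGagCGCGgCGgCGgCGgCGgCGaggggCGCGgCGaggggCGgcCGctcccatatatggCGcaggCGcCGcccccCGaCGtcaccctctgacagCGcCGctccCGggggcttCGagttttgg
Ebf4: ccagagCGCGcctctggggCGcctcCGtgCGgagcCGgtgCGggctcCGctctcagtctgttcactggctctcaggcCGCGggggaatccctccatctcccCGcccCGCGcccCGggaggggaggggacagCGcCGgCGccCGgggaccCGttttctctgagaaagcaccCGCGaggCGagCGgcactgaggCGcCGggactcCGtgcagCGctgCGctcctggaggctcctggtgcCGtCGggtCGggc

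The starts differed in base composition and in openness. The full window of Ebf3 held 46 CpG and 77.0% G or C, and only 2.10% of 21263 windows of protein-coding genes held as many CpG. The window of Ebf4 held 35 CpG and 74.3% G or C. The first start of Ebf1 lies in a stretch rich in A and T, with 9 CpG and 36.7% G or C, a value that 5.41% of windows were at or below. Its second start, at 44620228, had 17 CpG and 53.0% G or C. The median window held 13 CpG, windows with an ATAC peak 23 and windows without one 3.

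All 4 windows lay wholly within an H3K27ac peak, against 45.4% of windows touched by one. The windows of Ebf3 and Ebf4 were also open, as were 54.5% of all windows, and 42.1% carried both marks. An ATAC peak covered 260 of the 300 bases at Ebf3 and all 300 at Ebf4. Neither window of Ebf1 held an ATAC peak. At its first start, 1 open site lay at positions 167 to 363 from the start and another at -1022 to -769, so the pair flanked the window, and the nearer one was 117 bp from it.

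Letters of the EBF site were searched on both strands. The core CCCNNGGG occurred in 15.6% of windows and once here, as CCCGGGGG at positions -21 to -14 from the start of Ebf3. The full palindrome, this core with a T before it and an A after it, occurred in 0.959% of all windows and in none of the 4. The hexamer TGTGGT, the core letters bound by RUNX factors, was searched on both strands after the sequences had been read. It occurred in 15.0% of windows and once here, at positions -12 to -7 from the first start of Ebf1. A match is a description of the letters, not a binding site.

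**Figure D1:**
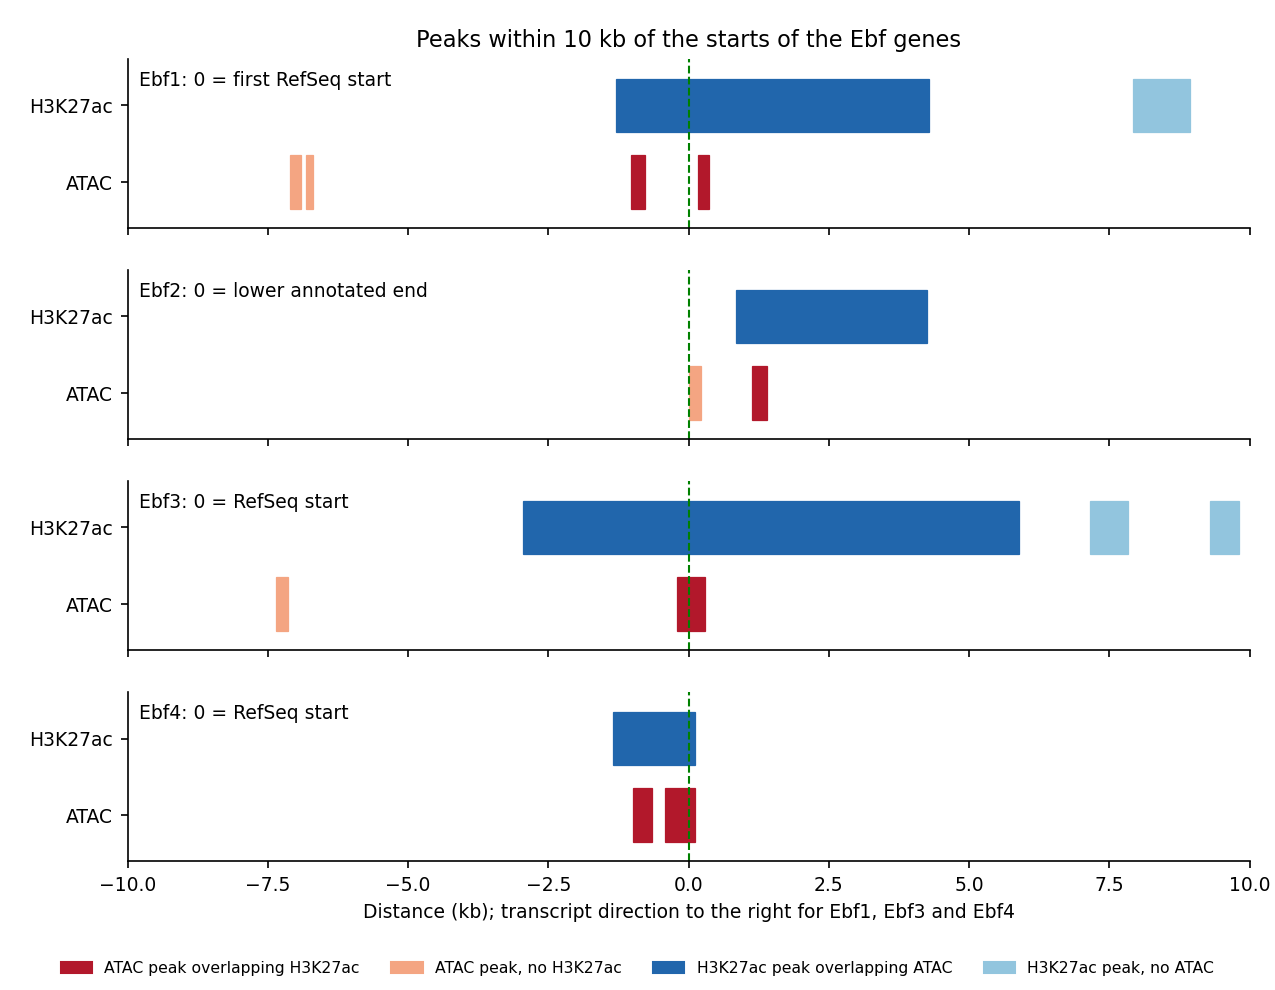
H3K27ac (upper row) and ATAC peaks (lower row) within 10 kb of the RefSeq starts of Ebf1, Ebf3 and Ebf4 and of the lower annotated end of Ebf2, with distance in kb on the horizontal axis and the start as a dashed line; dark bars overlap a peak of the other assay. The H3K27ac peak at the start spans 8851 bp at Ebf3, 5577 bp at Ebf1 and 1458 bp at Ebf4, and at Ebf2 3393 bp, lying 853 bp from the lower end.

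Ebf1, Ebf2 and Ebf4 had both marks within 1 kb of an annotated end, as 47.8% of all genes did, and Ebf3 had neither. In what follows, the lower and upper end of a gene are those with the lower and higher coordinate. At Ebf1 the 5577 bp H3K27ac peak (chr11:44616812-44622388) held ATAC peaks of 254 and 197 bp. One more ATAC peak, 157 bp wide, lay 121 bp beyond the upper end, and the nearest H3K27ac was 28508 bp from it. At Ebf2 an ATAC peak of 210 bp stood just inside the lower end, and 627 bp separated it from the 3393 bp H3K27ac peak (chr14:67234146-67237538), which held a second ATAC peak of 271 bp. An annotated end of the long noncoding RNA gene Gm20675 lies in or within 1 kb of the 210 bp and the 3393 bp peak. Which of the 2 genes these marks belong to was not tested. At Ebf4 the H3K27ac peak of 1458 bp (chr2:130294596-130296053) held ATAC peaks of 328 and 548 bp. The upper ends of Ebf2 and Ebf4 had neither mark within 2.5 kb.

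For Ebf3, the RefSeq start in the promoter table is 8360 bp inside the annotated span, away from both ends. At that start stood the widest ATAC peak inside the gene, 505 bp (chr7:137314151-137314655), and the 8851 bp H3K27ac peak (chr7:137308546-137317396) reached from position -2951 to 5899 relative to the start. The annotated ends themselves were 1014 and 2650 bp from the nearest ATAC peak. Both marks were thus within 1 kb of an annotated end at 3 of 4 genes, and in a promoter window at Ebf3 and Ebf4 but not at Ebf1.

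The genes differed in how much marked chromatin lay beyond the start. Ebf1 spans 390.0 kb (chr11:44618100-45008096) between Rnf145 and Clint1, and its locus held 25 ATAC and 32 H3K27ac peaks. Ebf2 spans 197.7 kb (chr14:67233292-67430952) between Ppp2r2a and Cdca2, with 19 ATAC and 14 H3K27ac peaks. Ebf3 spans 129.1 kb (chr7:137193671-137322805) between Mgmt and 9430038I01Rik, with 11 ATAC and 13 H3K27ac peaks. Ebf4 spans 75.4 kb (chr2:130295126-130370482) between Idh3b and Cpxm1, with 4 ATAC peaks and 1 H3K27ac peak. H3K27ac thus covered 51.5 kb at Ebf1, 31.5 kb at Ebf3, 18.6 kb at Ebf2 and 1.46 kb at Ebf4. As a share of the locus, the order changed: 12.7% at Ebf3, 6.94% at Ebf1, 3.10% at Ebf2 and 1.37% at Ebf4.

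**Figure D2:**
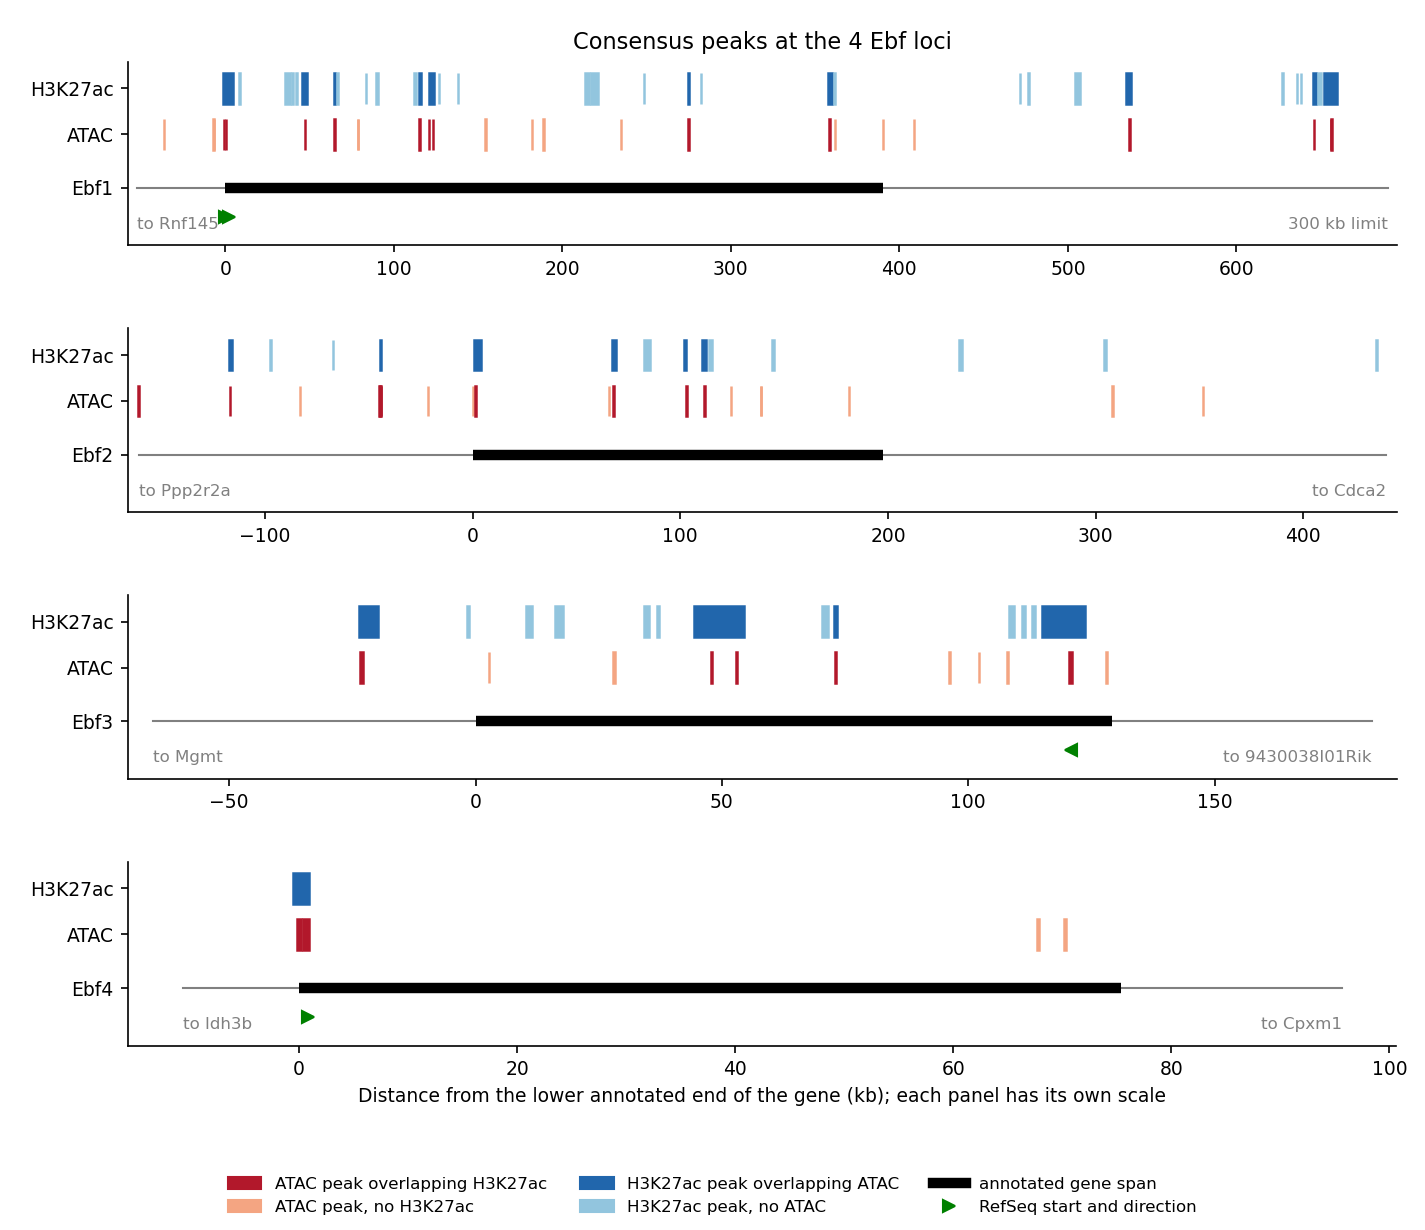
Peaks at the 4 Ebf loci, with distance from the lower annotated end in kb on the horizontal axis, the gene span as a black bar, and the flanks as a thin line; narrow peaks are drawn with a minimum line width, and dark bars overlap a peak of the other assay. Marks are spread along Ebf1, Ebf2 and Ebf3 and into flanks of each, whereas the only H3K27ac peak of Ebf4 is at its start. The lower flank of Ebf1 holds ATAC peaks only, and the upper flank of Ebf3 holds neither mark.

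Each gene was also ranked among all 21887 genes by the peaks in its span and 1 kb around it. H3K27ac covered 32.5 kb at Ebf1, rank 7, and 27.2 kb at Ebf3, rank 13. It covered 13.3 kb at Ebf2, rank 99, and 1.46 kb at Ebf4, rank 5943; the median gene had 0.539 kb. By number of H3K27ac peaks Ebf1 ranked 4 with 22, Ebf3 41 with 11 and Ebf2 124 with 7. By ATAC peaks Ebf1 ranked 25 with 17, Ebf2 and Ebf3 tied at 162 with 10 each, and Ebf4 ranked 1244 with 4; the median gene had 1.

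Long genes leave more room for peaks, and these ranks depend on it. Among genes from 0.5 to 2 times its span, the H3K27ac coverage of Ebf3 ranked 3 of 3187, that of Ebf1 5 of 920, that of Ebf2 48 of 2110 and that of Ebf4 1965 of 4861. As a share of the span and 1 kb around it, coverage was 20.8% at Ebf3, a value that 5.98% of all genes reached. It was 8.28% at Ebf1, reached by 17.6%, 6.68% at Ebf2, reached by 21.3%, and 1.88% at Ebf4, reached by 43.3%. Among genes of similar span, this share ranked 8 of 3187 at Ebf3, 8 of 920 at Ebf1, 62 of 2110 at Ebf2 and 2120 of 4861 at Ebf4. The density of ATAC peaks per 100 kb was 7.63 at Ebf3, 5.17 at Ebf4, 5.01 at Ebf2 and 4.34 at Ebf1. The median over all genes was 3.38, and by this measure the 4 genes lay much closer together. Among genes of similar span, the density ranked 93 of 3187 at Ebf3, 803 of 4861 at Ebf4, 166 of 2110 at Ebf2 and 49 of 920 at Ebf1.

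**Figure D3:**
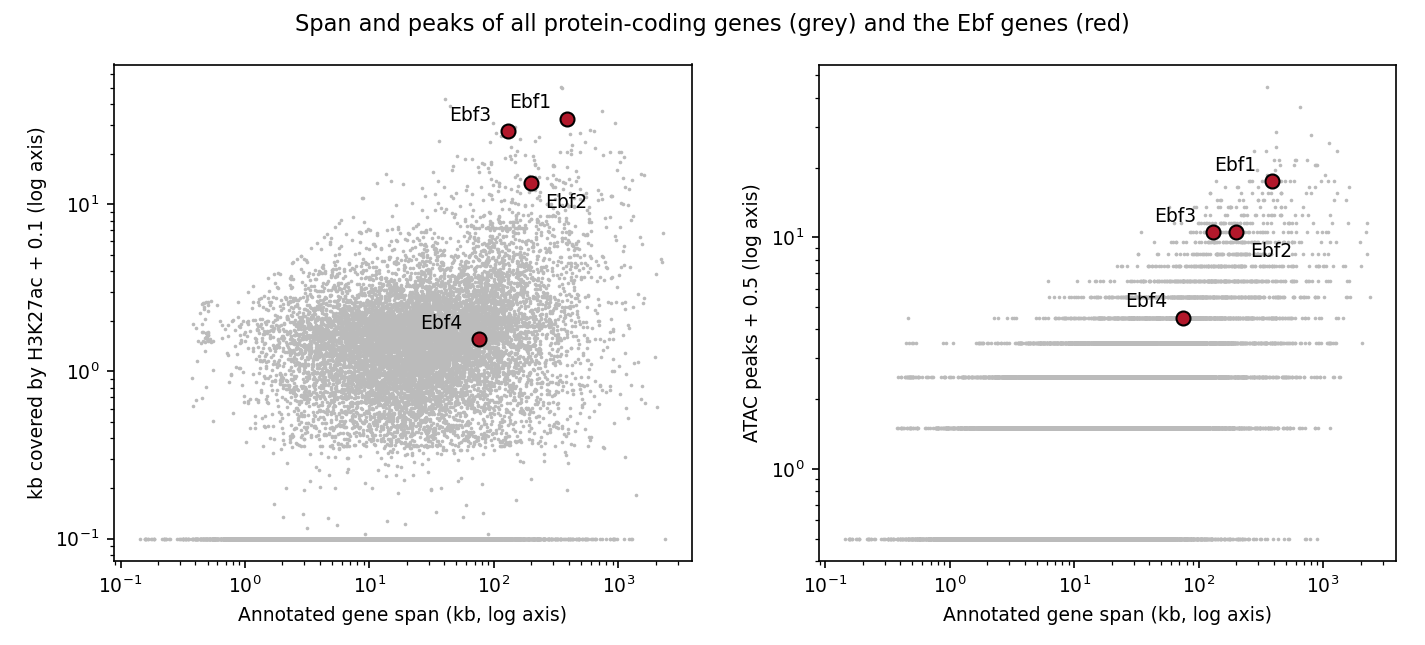
Each point is a protein-coding gene: span in kb on a log axis against kb covered by H3K27ac plus 0.1 (left, log axis) and number of ATAC peaks plus 0.5 (right, log axis), in the span and 1 kb around it, with the Ebf genes in red. For H3K27ac, Ebf1 and Ebf3 stand near the top of all genes and Ebf4 within the bulk.

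The broadest acetylation stood in Ebf3 and far from Ebf1. Inside Ebf3, an H3K27ac peak of 10097 bp (chr7:137238042-137248138) was the 22nd widest of the 19924 in the list and held 2 ATAC peaks of 184 and 227 bp; an annotated end of the long noncoding RNA gene Gm10578 lies in or within 1 kb of it. The 8851 bp peak at the start of Ebf3 was the 31st widest. The next at this locus, 3804 bp wide, lay in the flank towards Mgmt, 21.7 kb from the lower end of Ebf3, and held the widest ATAC peak of the locus, 535 bp.

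At Ebf1 the widest H3K27ac peak was not at the gene. It measured 7318 bp (chr11:45270335-45277652), the 65th widest of the list, stood 266 kb beyond the upper end and held 2 ATAC peaks of 229 and 295 bp. The 5577 bp peak at the first start came next, and the next, 3783 bp at 219 kb from the lower end, inside the gene, held no ATAC peak. The widest ATAC peaks of the locus, 509, 391 and 387 bp, all lay inside the gene and overlapped H3K27ac. At Ebf2 the widest H3K27ac peaks were the 3393 bp peak near the lower end, 2937 bp inside the gene without an ATAC peak, and 1685 bp inside the gene with one. Its widest ATAC peaks measured 393 bp inside the gene, 375 bp at the end of Ppp2r2a and 354 bp in the upper flank, the last without H3K27ac. At Ebf4 the ATAC peaks of 203 and 206 bp stood inside the gene near its upper end, at 34086 and 31575 bp from the nearest H3K27ac.

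Along the inside of Ebf1 the open and acetylated sites formed groups. At 47 kb from the lower end, the 391 bp ATAC peak lay in an H3K27ac peak of 3032 bp, with 3 further H3K27ac peaks of 2791, 643 and 485 bp below it that held no ATAC peak. Between 115 and 123 kb, ATAC peaks of 207, 129 and 224 bp lay in H3K27ac peaks of 1554 and 3235 bp. The 509 bp ATAC peak at 65.0 kb overlapped an H3K27ac peak of only 405 bp. Nearer the upper end, the 387 bp ATAC peak lay in an H3K27ac peak of 2408 bp. ATAC peaks without acetylation stood between these groups: those at 182 and 189 kb, of 205 and 336 bp, were 31423 and 24791 bp from H3K27ac.

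Inside Ebf2, 5 of the 9 ATAC peaks lay in the noncoding gene 4930438E09Rik, which lies within the span of Ebf2. The first of them, 393 bp wide, overlapped an H3K27ac peak of 1156 bp, and the second, 326 bp wide, one of 1644 bp. The other 3, of 214, 116 and 149 bp, had no H3K27ac within 5 kb. Inside Ebf3, an ATAC peak of 203 bp at 73.1 kb lay in an H3K27ac peak of 543 bp. One of 192 bp stood 129 bp outside an H3K27ac peak of 1037 bp. The remaining 5 unacetylated sites inside Ebf3, from 108 to 259 bp wide, were at least 3933 bp from H3K27ac.

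Stitching H3K27ac peaks within 10 kb gave 16290 domains over the whole list, and the loci of Ebf1 and Ebf3 held several of the largest by covered length. The domain around the 7318 bp peak of Ebf1 held 6 peaks with 11.8 kb covered, rank 58, and began 236.8 kb beyond the upper end. At Ebf3 the domain around the 10097 bp peak covered 11.6 kb in 3 peaks, rank 62, and that at the start 11.1 kb in 4 peaks, rank 66. Ebf1 had a further 4 domains at ranks 212 to 303, each covering from 6.01 to 6.95 kb, 1 at its start and 3 inside the gene. The largest at Ebf2 covered 4.44 kb, rank 657, and the only one at Ebf4 1.46 kb, rank 6252.

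**Figure D4:**
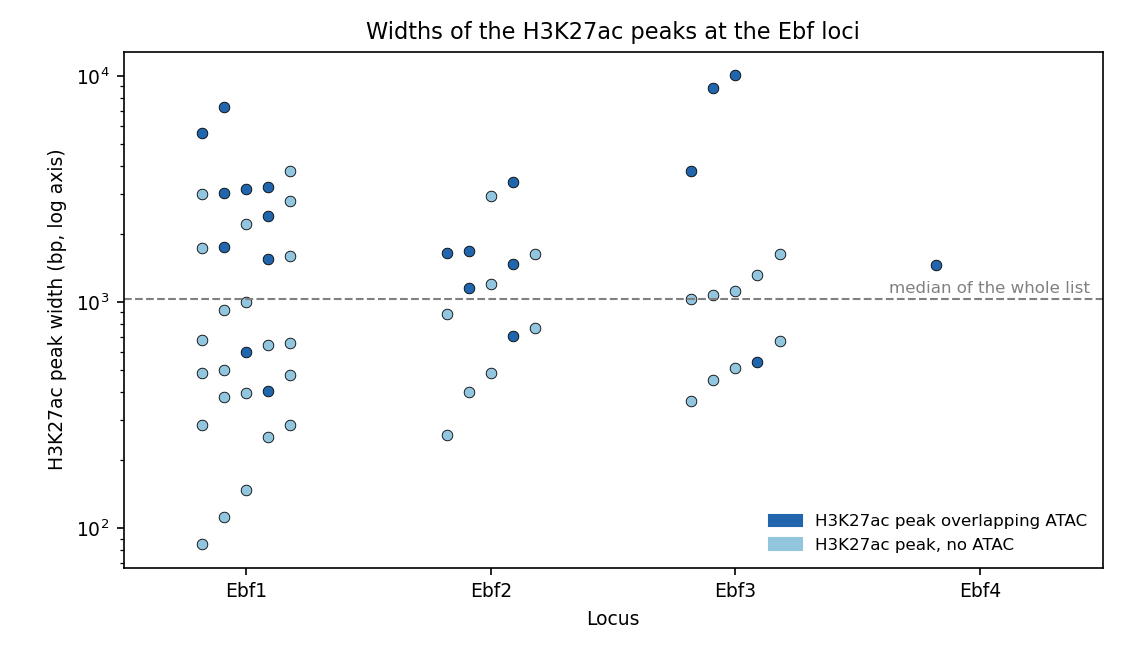
Width in bp (log axis) of each H3K27ac peak at the 4 loci; dark points overlap an ATAC peak and the dashed line is the median of the whole list, 1036 bp. The widest peaks of Ebf1 and Ebf3 are dark, and most points under the line are pale.

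About 1 in 2 ATAC peaks overlapped H3K27ac at every locus. The share was 13 of 25 at Ebf1 (52.0%, exact 95% binomial interval 31.3 to 72.2), 9 of 19 at Ebf2 (47.4%, 24.4 to 71.1), 5 of 11 at Ebf3 (45.5%, 16.7 to 76.6) and 2 of 4 at Ebf4 (interval 6.76 to 93.2), against 39.6% of all ATAC peaks. The intervals cover counting error only, overlap one another widely, and treat peaks of 1 locus as independent, which they may not be. The share in the whole list differed with position: inside genes 26.6% of all ATAC peaks overlapped H3K27ac, between genes 16.6% and at gene ends 72.8%. Inside the Ebf genes the count was 15 of 35 (42.9%, interval 26.3 to 60.6): 7 of 14 in Ebf1, 4 of 9 in Ebf2, 4 of 10 in Ebf3 and 0 of 2 in Ebf4. In the flanks it was 9 of 17 (52.9%, 27.8 to 77.0).

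The flanks counted differ in length. The upper flank of Ebf1, 300 kb long, held 4 acetylated of 5 ATAC peaks, and its lower flank, 52.6 kb long, 0 of 3. All 4 acetylated sites lay from 146.6 to 266.5 kb beyond the upper end, and the only ATAC peak of the upper flank nearer than these, at 18.8 kb, had no H3K27ac, so the sides could not be told apart over an equal length. At Ebf2 the lower flank of 160.8 kb held 4 acetylated of 6 ATAC peaks and the upper flank of 242.2 kb 0 of 2. Of the acetylated sites below Ebf2, 3 stood side by side and overlapped a single H3K27ac peak of 708 bp at 44 kb from the gene, within 1 kb of an end of the long noncoding RNA gene Gm30438. Ebf3 had 1 ATAC peak in its flanks, the 535 bp site towards Mgmt, and Ebf4 none. Of the 30 ATAC peaks without H3K27ac, 3 had it within 1 kb, beside 7.49% of all such peaks. Their median distance to H3K27ac was 7.51 kb, against 29.96 kb over all 26372 ATAC peaks without it. The larger set was not matched for position or for the density of H3K27ac peaks around the site.

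Most H3K27ac peaks at these loci held no ATAC peak. Of the 60, 21 overlapped one (exact interval of the share 23.1 to 48.4%), against 68.9% of the whole list. The counts were 10 of 32 at Ebf1, 6 of 14 at Ebf2, 4 of 13 at Ebf3 and 1 of 1 at Ebf4. All 3 H3K27ac peaks at annotated ends held an ATAC peak. Inside the genes 12 of 38 did (31.6%, 17.5 to 48.7), beside 45.3% of H3K27ac peaks inside genes in general, and in the flanks 6 of 19 did (31.6%, 12.6 to 56.6), beside 44.1% between genes. Width went with overlap: 15 of the 60 peaks were over 2 kb wide (15.8% of the list were), and 10 of the 15 held an ATAC peak (66.7%, interval 38.4 to 88.2), an interval that includes the 86.7% of the whole list. Of the 28 under 1 kb, 4 did (14.3%, interval 4.03 to 32.7), against 53.2% of the list. The intervals of these H3K27ac shares cover counting error only and pool peaks of several loci as independent, which they may not be. The shares by width are not matched for position. In the whole list, 9523 of 19924 H3K27ac peaks were at gene ends, where 95.2% held an ATAC peak, but only 3 of the 60 here were. The part of position in these differences was not tested, and a wider peak has more room to meet an ATAC peak. With no depth given, a weak open site that was not called cannot be told apart from closed chromatin.

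**Figure D5:**
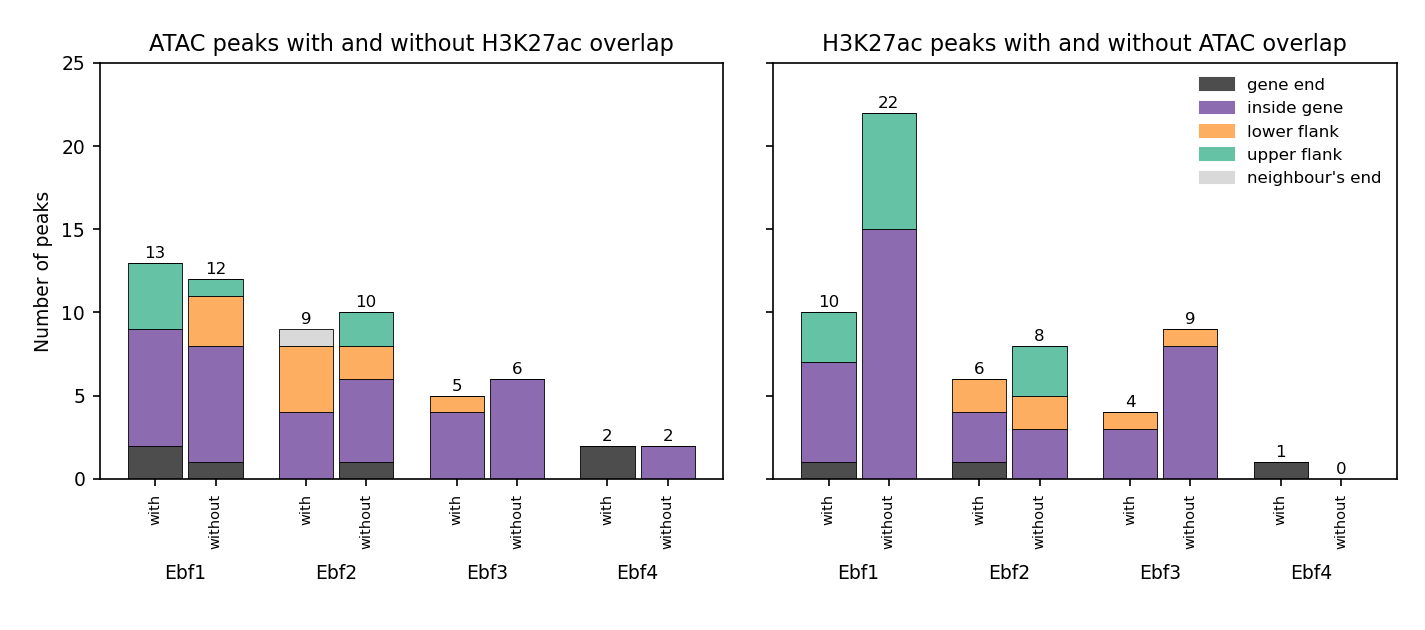
Number of ATAC peaks (left) and H3K27ac peaks (right) at each Ebf locus with and without overlap with the other assay, with colours for position and the total above each bar. For H3K27ac, peaks without ATAC outnumber those with it at Ebf1 (22 to 10), Ebf2 (8 to 6) and Ebf3 (9 to 4).

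The genes most like each member were found by the Euclidean distance over 4 standardised measures on the log2(1 + value) scale in the span and 1 kb around it (ATAC peaks, H3K27ac peaks, ATAC peaks overlapping H3K27ac, and kb covered by H3K27ac). This compares counts in 1 list per assay and says nothing of function. The nearest to Ebf1 were Nfia, Tenm4 and Aopep, with 17, 21 and 12 ATAC peaks and 21, 23 and 15 H3K27ac peaks, at distances of 0.587, 0.666 and 0.959. The nearest to Ebf2 were Vgll4, Elmo1 and Asap1, of which Vgll4 had the same 10 ATAC and 7 H3K27ac peaks (distances 0.00628, 0.410 and 0.424). The nearest to Ebf3 were Tspan18, Rere and Rbfox2, with 26.9, 20.4 and 25.3 kb of H3K27ac, at distances of 0.448, 0.859 and 0.861. Ralyl, Tafa2 and Lasp1, each with 4 ATAC peaks and 1 H3K27ac peak, were nearest to Ebf4, at distances of 0.00212, 0.00283 and 0.0149.

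Among partners and cofactors of EBF proteins, 7 of 10 genes were open at an end and 8 acetylated, beside 60.4% and 49.3% of all genes. Zfp521 had 10 H3K27ac peaks covering 13.2 kb in its span and 1 kb around it, and Zfp423 had 9 covering 16.8 kb; both encode the zinc finger partners that can block EBF proteins. Zfp423, Runx1 and Pax5 had no ATAC peak at an end. Pax5, a B cell factor that acts with Ebf1, held 7 ATAC peaks and no H3K27ac. In general, 26.6% of ATAC peaks inside genes overlapped H3K27ac. The median coverage over the 10 genes was 2.51 kb, against 0.539 kb over all genes. Neither this nor the coverage of Zfp521 and Zfp423 was matched for gene span, and long genes leave more room for peaks.

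All 8 neurogenic factors counted here, which act before or beside EBF proteins, were open at an end, and 6 were acetylated. Over all genes the shares were 60.4% and 49.3%. The exceptions for H3K27ac were Neurog2 and Atoh1, which had no H3K27ac peak in the span or within 1 kb. Pou4f1 and Isl1 are also in the list of sensory neuron markers. Isl1, a homeodomain factor of sensory and motor neurons, carried the most, 13.4 kb. Neurod1, a bHLH factor of differentiating neurons, carried 3.85 kb and Dll1, a Notch ligand, 2.59 kb.

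Genes that EBF proteins are known to activate in other tissues differed by list, beside 60.4% of all genes open and 49.3% acetylated at an end. Of 12 B cell targets, only Blk was open at an end, and only Cd79a was acetylated there, by a peak of 0.389 kb. Of 6 targets in olfactory neurons, 4 were open and 3 acetylated (Adcy3, Gnal and Cnga4); Omp and Cnga2 had neither mark. Of 7 targets in adipocytes, 3 were open (Pparg, Cebpa and Plin1) and only Plin1 was acetylated. Prdm16, a factor of brown fat, held 17 ATAC peaks, of which 1 overlapped H3K27ac. Over the whole list 39.6% of ATAC peaks did, and 26.6% of those inside genes. The count was not set against the length of the gene. Each of the last 3 lists had a median H3K27ac coverage under that of all genes, 0 kb for B cells and adipocytes and 0.319 kb for olfactory neurons. These medians were not matched for gene span either.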

How the data were processed

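Each assay has 1 deposited consensus list, which gives a peak's chromosome and its limits in bp and no score; how the authors formed the consensus is not given in the sources used here. Per the submitters' processing notes, cutadapt 1.18, Bowtie2 2.3.5.1, MACS2 and bedtools were used, on mm10. Starts, counted from 0 in the lists, are printed counted from 1. Of 43739 ATAC and 19928 H3K27ac peaks, those on chromosomes 1 to 19, X and Y were used. Input DNA was not used here.

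Gene spans and promoter windows came from RefSeq (GRCm38.p6), with no exons, so sites are given only as inside or outside a gene. Overlap meant at least 1 shared bp; a peak belonged to a locus if its midpoint lay there or if it touched the 1 kb around an annotated end. No test was made: the members and lists were chosen with earlier results of these data known, and values are set beside the same over all genes or peaks. The genes named are the members, their neighbours, the 3 most alike genes, and members of the lists that were exceptions where 5 or fewer were with or without a peak; Zfp423, Zfp521, Isl1, Neurod1, Dll1, Prdm16 and the noncoding genes were named after their values were seen. One member of the list of neurogenic factors is not reported here and was left out of its counts. The 3 widest peaks of each kind were described per locus. Computation used python 3.11.15, pandas 2.3.3 and scipy 1.17.1, and the interval counts were tested on simulated data.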

Additional observations from a re-analysis of the deposited data

How the results depend on the processing

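No paired analysis was possible because each assay has 1 consensus list and no values per sample, and for the same reason no replicate could be left out. With the wider 50% of each list, ATAC peaks numbered 12 at Ebf1, 6 at Ebf2, 4 at Ebf3 and 2 at Ebf4, and H3K27ac peaks 14 at Ebf1, 8 at Ebf2 and 8 at Ebf3; the acetylated share at Ebf4 became 100% (2 of 2). This setting left 0 B cell targets open at an end, 1 olfactory target acetylated and 0 adipocyte targets acetylated. Without flanks, Ebf2 had 10 ATAC and 7 H3K27ac peaks. With no limit on the flank, an alternative chosen after seeing the data, Ebf1 had 58 H3K27ac peaks. With a window of 0.5 kb, 0 B cell targets were acetylated at an end and Ebf2 lost its H3K27ac peak there. With 2.5 kb, 4 B cell targets were open and 3 acetylated, 2 adipocyte targets were acetylated, and Ebf3 gained 1 ATAC and 1 H3K27ac peak at its ends. The acetylated share stayed within its counting interval at all 4 loci with a flank of 100 kb, with 50% of the ATAC peak covered, and with H3K27ac within 1 kb, the last also chosen after seeing the data. In all, 157 recomputed values were compared: 108 stayed within 1.5 times the reported value, or within its counting interval for shares, and 49 moved further. Some of the 108 could not move, so the tally does not measure stability. The 100 kb flank changes nothing at Ebf3 and Ebf4, whose flanks are shorter, and lifting the limit acts only at Ebf1. Leaving out peaks at a neighbour's end removes 1 ATAC peak at Ebf2 and nothing elsewhere. The counting intervals of the shares are also wide, 6.76 to 93.2 at Ebf4. Those that moved include the standing per length among all genes given above and the ranks of domains. Of the domains, the largest at Ebf4 went from the top 38.4% to the top 8.91% when stitched within 20 kb. That setting joined it to 2 peaks outside the locus. Depth is unknown, so a site without a peak may be one below the authors' threshold.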

Other observations

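The acetylation above Ebf1 went on beyond the 300 kb that were counted. The gap between Ebf1 and Clint1, the next protein-coding gene, measures 843.8 kb. Between the 300 kb limit and Clint1 it held another 26 H3K27ac peaks, 43937 bp in all, and 6 ATAC peaks. Of these H3K27ac peaks, 2 overlapped an ATAC peak: a 5686 bp peak (chr11:45521518-45527203) at 516.3 kb beyond Ebf1, the widest of the 26, which held 2 ATAC peaks of 385 and 122 bp, and a 2269 bp peak at 569.9 kb with an ATAC peak of 421 bp. The most distant of them lay 66.3 kb from Clint1, so none stood at that gene's end.

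Among 19697 gaps between protein-coding genes, this one held the most H3K27ac peaks, 36 by midpoint, and the most covered sequence, 62.7 kb, and no other gap had as many. It kept the first rank for both among the 711 gaps of at least 500 kb, whose median was 1 peak and 0.459 kb. By ATAC peaks the gap was less extreme, with 12, rank 68 of all gaps and rank 42 of those of at least 500 kb (median 3). Only 5 of the 36 H3K27ac peaks overlapped an ATAC peak, against 44.1% of all H3K27ac peaks between genes. The comparison of gaps was made after these peaks had been seen, and which gene the peaks act on was not tested.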
